A study of Mus musculus with 24 samples.

Results

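The genes described here are the 3 Nr4a receptors, Nr4a1, Nr4a2 and Nr4a3, and 7 other nuclear receptors, Pparg, Ppard, Rxra, Rara, Nr3c1, Nr1d1 and Nr1d2. The members were chosen by name, as every probe of the scanner files whose gene name equals 1 of these 10 symbols, which gave 16 probes. The arrays carried 21597 gene symbols, of which 17347 passed the filter on dim genes and were tested, and all 10 members were among those tested. For each member the basal level in 3 cell types is given first by sample, followed by the change with treatment. This is taken against an early control at 1 h and a 12 h control at 12 h, both defined below.

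The cells came from C57BL/6 mice and were of 3 types: peritoneal macrophages elicited with thioglycollate (EPM), macrophages grown from bone marrow (BMDM) and resting B cells of the spleen (B). The treatment was Kdo2 lipid A (KLA), a defined form of endotoxin that activates Toll-like receptor 4, given for 1 h or 12 h. Total RNA was read on 12 Agilent arrays with 2 colours, and each array held 2 biological replicates of 1 condition, replicate 1 in Cy5 and replicate 2 in Cy3.

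Each cell type had 4 conditions with n = 2 samples each, 24 samples in all. EPM and B cells had untreated cells as the early control, without vehicle, and BMDM had dimethyl sulfoxide (DMSO) for 1 h. All 3 cell types had KLA for 1 h, DMSO for 12 h and KLA for 12 h. In what follows the early control is the untreated or DMSO 1 h condition, and the 12 h control is DMSO for 12 h. KLA and vehicle cannot be told apart in the 1 h changes of EPM and B cells, whose early control had no vehicle. Levels are normalised log2 intensities, and a change is a difference of such values.

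Between 60.0% and 64.95% of probes were well above background in the 8 EPM samples, 58.24% to 61.24% in BMDM and 57.45% to 61.52% in B cells. The number of arrays limits the precision: both samples of a condition shared 1 array, so the spread between them leaves out differences between arrays. Each cell type was on 1 slide of 4 arrays, so a difference between slides and one between cell types are the same thing here and cannot be told apart. A lower level in a mixture of cells may also mean fewer cells that express the gene or less RNA in each, which cannot be told apart here.

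Marker genes were read to check the labels. All 9 B cell markers were well above background in every B cell condition, and all 9 macrophage markers were in every EPM and BMDM condition. Of the macrophage markers 4 to 5 were also well above background in B cells, with Ctsd the brightest, while Itgam, Fcgr1, Mertk and Mrc1 were not. B cell markers were in turn 4 to 6 of 9 well above background in EPM and 4 to 5 in BMDM. Cd22 was the brightest of them in EPM, at 10.80 in untreated EPM against 12.47 in untreated B cells. In BMDM it was Cd79b, at 11.69 in DMSO 1 h against 17.07 in untreated B cells. Neutrophil markers were 7 to 8 of 8 well above background in BMDM, with S100a9 the brightest, against 4 to 5 in EPM. Their summed signal in BMDM was 14530 and 15110 in DMSO 1 h, 21250 and 25000 in KLA 1 h, 10090 and 11780 in DMSO 12 h, and 22590 and 25460 in KLA 12 h. The part that such other cells have in the member values was not tested.

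The labels of 2 B cell conditions are in conflict with the table of values that the authors deposited. Of its 24 columns, 20 matched the scanner values of their own label, with r of at least 0.95. The other 4 columns, B KLA 1 h and B DMSO 12 h, each matched the other of these conditions, with r of at least 0.965, and their own with r no higher than -0.69. The scanner labels are used below, and the member changes and counts of B cells that involve these conditions are also given with the labels exchanged. Which of the labels is right was not tested.

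Nuclear receptors are transcription factors, many of which are switched by a small fat-soluble ligand. The Nr4a receptors are orphans whose activity is set mainly by how much of them is made, and their genes are rapidly induced by many signals, lymphocyte antigen receptors and Toll-like receptors among them. Pparg and Ppard encode fatty acid sensors of macrophages, Rara a retinoic acid receptor, and Rxra the partner with which all of these bind DNA. Nr3c1 encodes the glucocorticoid receptor, which restrains inflammatory genes, and Nr1d1 and Nr1d2 encode the Rev-erb repressors of the circadian clock.

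The members called with KLA are counted first, and the shares of all genes follow. A gene is called changed where limma's eBayes test gave an adjusted p under 0.05 over all genes tested. In EPM, 2 of 10 members were called at 1 h, both higher, and 4 at 12 h, of which 1 was higher and 3 were lower. In BMDM, 2 members were called at 1 h, both higher, and 7 at 12 h, of which 4 were higher and 3 lower. In B cells 1 member was called at 1 h and 2 at 12 h, all higher, but 1 of those at 12 h, Nr4a3, passed the filter on dim genes through B KLA 12 h alone, so its test there decides nothing. Because both samples of a condition shared 1 array, the array means were also tested as samples, with both controls of a cell type as replicates. Each KLA condition was then 1 sample, so the spread came from the controls alone and leaves out that between treated samples. Then Pparg stayed called at 12 h in EPM and BMDM, and Rxra in BMDM at 12 h. Far fewer of all genes were called as well, and their counts are given at the end. The other calls with KLA were lost, which decides nothing where the controls pooled as replicates differ themselves: for Nr4a1 in EPM the early and 12 h controls lay 2.22 apart, and its 1 h change against the pool was 4.49 (adjusted p 0.318). Rxra in EPM at 12 h lost its call too (-0.86), although its controls there lay 0.07 apart and its size was kept. Rara in EPM at 1 h also lost its call, where its controls read 6.19 and 6.20, the 12 h one not well above background.

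Large shares of all genes changed in the same comparisons, against which these counts should be read. At 1 h, 29.1% of all genes were called in EPM (9.39% higher and 19.7% lower) and 28.6% in BMDM (11% higher and 17.6% lower). At 12 h the shares were 53.9% in EPM (19.6% higher and 34.3% lower) and 65.0% in BMDM (28.6% higher and 36.3% lower). In B cells 5.17% were called at 1 h (2.72% higher and 2.45% lower) and 5.29% at 12 h (2.81% higher and 2.48% lower). The median change over the 10 members was 0.03 in EPM at 1 h, where that of all genes was -0.05, and -0.02 against -0.06 at 12 h. In BMDM these medians were 0.03 against -0.03 at 1 h and 0.01 against -0.03 at 12 h, and in B cells 0.06 against 0.01 and 0.03 against -0.01. Members moved both ways, so a median near 0 does not mean that they stayed still. Without normalization between arrays, the median of all genes in BMDM at 12 h was -0.14 in place of -0.03.

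**Figure D1:**
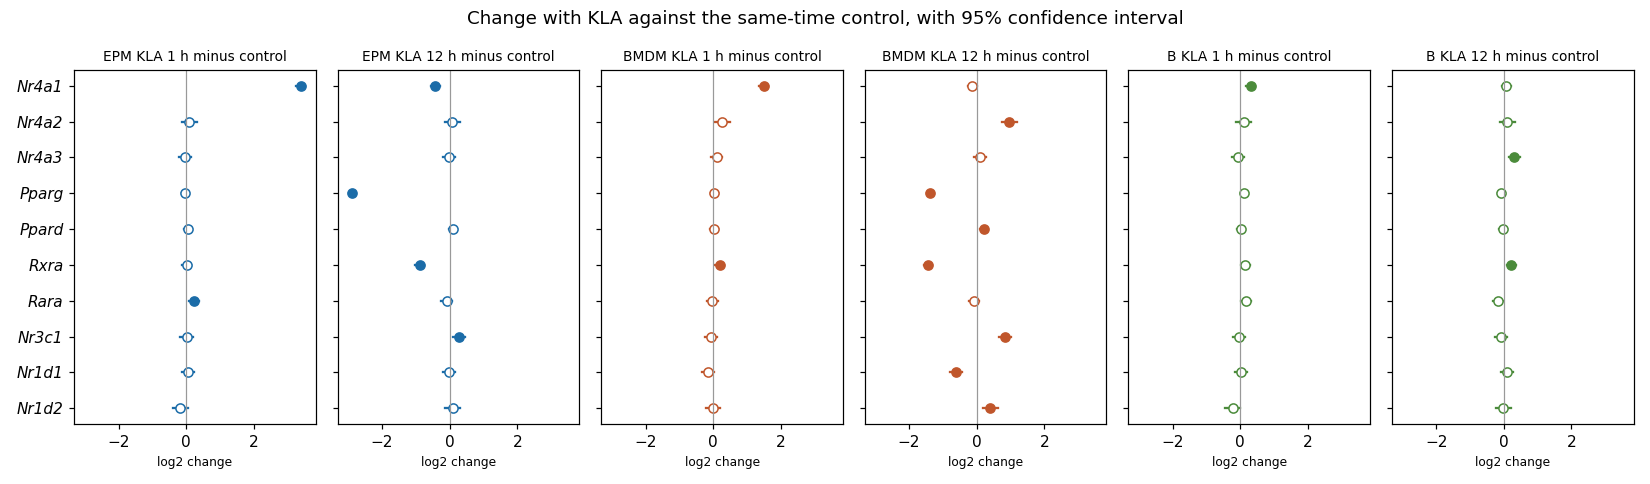
Change of each member with KLA against the early control at 1 h and the 12 h control at 12 h (log2, points). Lines are 95% confidence intervals, each cell type and time has 1 panel, and filled points are called. Nr4a1 in EPM at 1 h (3.38) and Pparg in EPM at 12 h (-2.89) lie furthest from 0. Nr4a3 in B cells at 12 h is drawn as called, but its test there decides nothing.

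Nr4a1 encodes the orphan receptor Nur77 and was read by probe A_51_P239654 on chromosome 15 (mm8). In EPM its log2 intensity was 11.31 (Cy5) and 11.16 (Cy3) in untreated cells and 14.58 and 14.65 after 1 h of KLA. It was 9.03 and 9.01 in the 12 h control and 8.57 and 8.61 after 12 h of KLA. Both treated samples lay above both controls at 1 h and below both at 12 h. The rise at 1 h was 3.38 (95% confidence interval 3.25 to 3.51), or 10.4-fold, with an adjusted p of 6.22e-18 by limma. At 12 h it fell by 0.43 (adjusted p 9.11e-06).

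In BMDM, Nr4a1 read 12.22 and 12.18 in DMSO 1 h and 13.70 and 13.67 in KLA 1 h. At 12 h it read 10.26 and 10.34 in the control and 10.11 and 10.23 with KLA. The samples did not overlap at either time, and the 1 h rise was the clear one. That rise was 1.49, or 2.80-fold (limma, adjusted p 1.28e-12). The decrease at 12 h was not called (-0.14, adjusted p 0.0621). It was called without normalization between arrays (-0.46, adjusted p 2.16e-06), with the dye as a replicate block (adjusted p 0.0469) and without the Cy3 sample of KLA 12 h (-0.20, adjusted p 0.0278).

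B cells held Nr4a1 at 15.24 and 15.12 when untreated and at 15.51 and 15.46 after 1 h of KLA. The values were 13.37 and 13.34 in the 12 h control and 13.45 and 13.40 after 12 h of KLA. No member spot was saturated, so these high values are measured. As labelled, both treated samples exceeded both controls at each time, by a small step. The 1 h change was 0.31, or 1.24-fold (limma, adjusted p 0.00504), and was no longer called without the Cy3 sample of untreated cells (0.25, adjusted p 0.0727) or the Cy5 sample of KLA 1 h (0.29, adjusted p 0.0753). The 12 h change was not called (0.07, adjusted p 0.645). With the labels exchanged Nr4a1 fell by 1.83 at 1 h (adjusted p 1.13e-13) and changed by -2.06 at 12 h (adjusted p 2.53e-14).

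**Figure D2:**
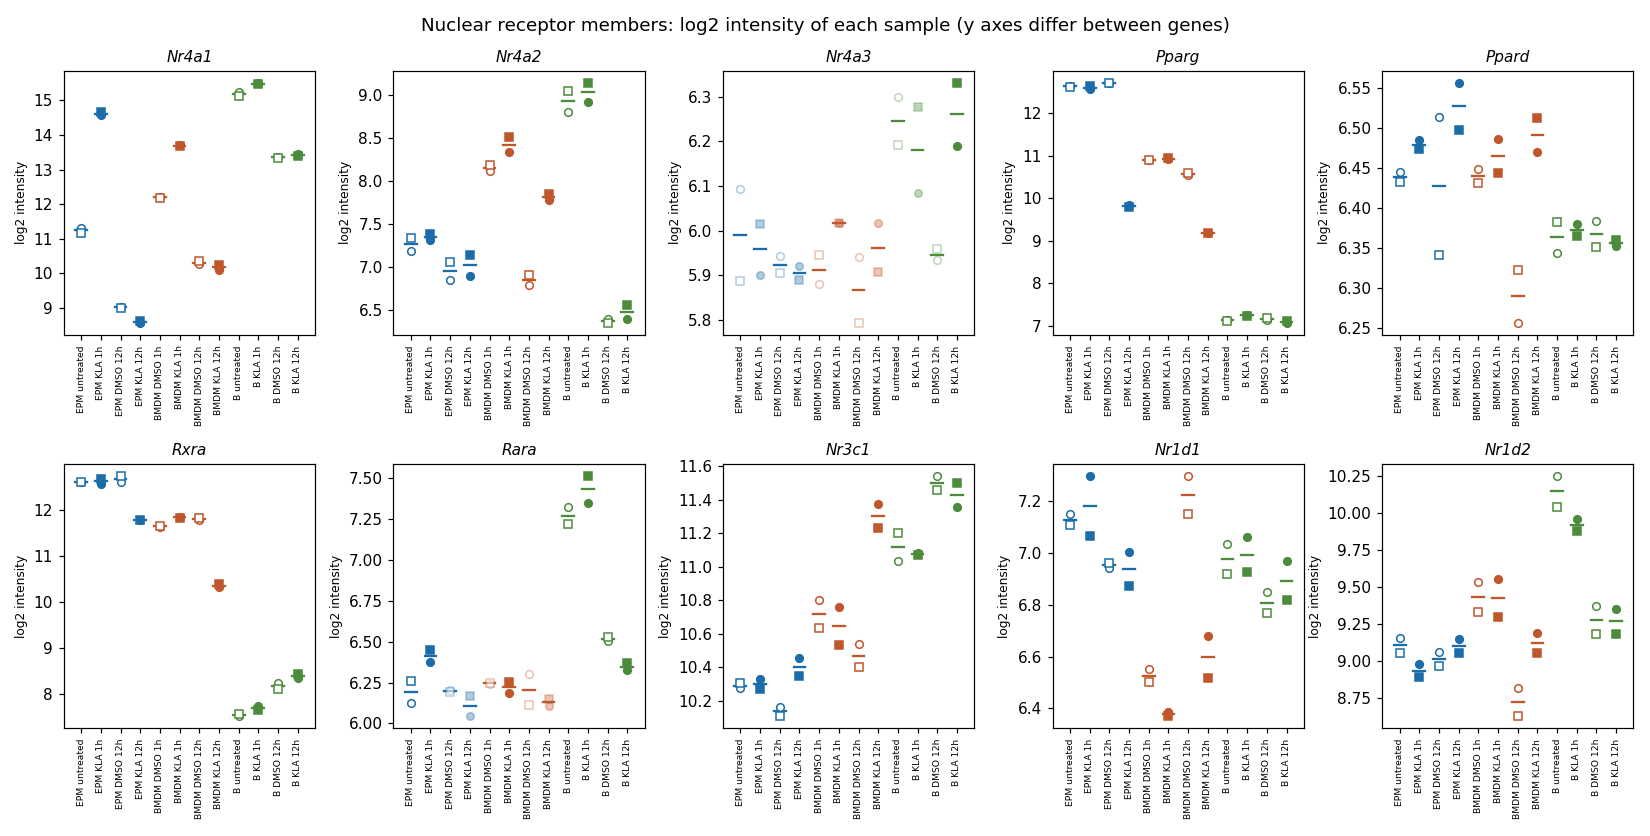
Log2 intensity of each member in each sample (circles Cy5, squares Cy3, open for controls, pale where not well above background; bars are means of n = 2) over the 12 conditions. Nr4a1 in EPM stands at 14.58 and 14.65 after 1 h of KLA, above every other EPM sample.

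Nr4a2 encodes Nurr1, the close relative of Nur77, and was read by probe A_52_P494622 on chromosome 2 (mm8). Its BMDM values were 8.12 and 8.19 in DMSO 1 h, 8.33 and 8.52 in KLA 1 h, 6.79 and 6.91 in DMSO 12 h and 7.78 and 7.85 in KLA 12 h. Both treated samples were higher than both controls at both times. The 12 h rise was 0.97, or 1.96-fold (limma, adjusted p 1.86e-07). The smaller 1 h difference of 0.27 was not called (adjusted p 0.0646) and was called with the dye as a replicate block (adjusted p 0.00141).

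In EPM, Nr4a2 read 7.19 and 7.34 untreated, 7.32 and 7.38 in KLA 1 h, 6.84 and 7.05 in DMSO 12 h and 6.89 and 7.14 in KLA 12 h. Treated and control samples overlapped at both times, and neither change was called. The gene that rose most with KLA in EPM at 1 h among the members thus had a close relative whose change was not called there. In B cells Nr4a2 read 8.81 and 9.05 untreated, 8.92 and 9.15 in KLA 1 h, 6.39 and 6.35 in DMSO 12 h and 6.39 and 6.55 in KLA 12 h. Neither B cell change was called as labelled, and with the processed signal the 12 h change was (0.56, adjusted p 0.0454). With the labels exchanged its change was -2.57 both at 1 h (limma, adjusted p 1.19e-12) and at 12 h (adjusted p 1.43e-12).

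Nr4a3, which encodes Nor1, was barely measured (probe A_51_P128397, chromosome 4). It was well above background in both samples of B KLA 12 h, which read 6.19 and 6.33, and in 1 of 2 samples of untreated B cells, which read 6.30 and 6.19. It was not well above background in B KLA 1 h (6.08 and 6.28) or B DMSO 12 h (5.93 and 5.96), nor in any EPM or BMDM sample. No fold is given for it in macrophages for that reason. It passed the filter on dim genes through B KLA 12 h alone, 1 of 12 conditions, so its tests in B cells and against B cells decide nothing and are left out. The counts of members called still include it where stated. Where a gene was not well above background in a condition, its mean there was replaced by the higher of its own signal and the lowest signal of any probe well above background, sample by sample, and the fold is then a lower bound. No such bound is given for Nr4a3, because its higher side would be B KLA 12 h, the condition through which alone it passed the filter. Untreated B cells read about the same as B KLA 12 h.

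The start of each Nr4a gene carries the same short element several times. The 250 bases before the start in RefSeq (build GRCm38.p6) were searched on both strands for TGACG, the half-site of the cyclic AMP response element (CRE), whose other strand reads CGTCA. A promoter was found for 9 of 10 members, Nr3c1 being the missing one, and these had 15 promoters. Nr4a1 (chr15:101266596-101266845, + strand) has 4 half-sites, at -233, -213, -69 and -40. Nr4a2 (chr2:57124004-57124253, - strand) has 4, at -200, -144, -123 and -111. Nr4a3 (chr4:48045055-48045304, + strand) has 4, at -231, -213, -205 and -147. Of all 32851 promoters, 5836 (17.8%) have at least 1 half-site and 45 (0.137%) have at least 4. Among the other members, 1 promoter of Rara has 1 half-site, at -227, and the remaining 11 promoters have none. The sequences are printed, half-sites in capitals, because the 3 genes share this element at a count that few promoters reach:
Nr4a1: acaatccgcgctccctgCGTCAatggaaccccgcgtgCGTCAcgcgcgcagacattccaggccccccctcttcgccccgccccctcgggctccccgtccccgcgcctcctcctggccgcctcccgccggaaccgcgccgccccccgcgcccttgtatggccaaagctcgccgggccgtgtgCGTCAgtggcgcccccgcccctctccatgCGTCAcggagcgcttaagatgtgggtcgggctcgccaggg
Nr4a2: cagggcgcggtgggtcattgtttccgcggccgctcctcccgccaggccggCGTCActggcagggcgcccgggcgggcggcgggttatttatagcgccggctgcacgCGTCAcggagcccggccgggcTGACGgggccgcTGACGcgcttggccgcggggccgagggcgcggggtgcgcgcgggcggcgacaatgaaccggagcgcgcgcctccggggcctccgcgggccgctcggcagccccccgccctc
Nr4a3: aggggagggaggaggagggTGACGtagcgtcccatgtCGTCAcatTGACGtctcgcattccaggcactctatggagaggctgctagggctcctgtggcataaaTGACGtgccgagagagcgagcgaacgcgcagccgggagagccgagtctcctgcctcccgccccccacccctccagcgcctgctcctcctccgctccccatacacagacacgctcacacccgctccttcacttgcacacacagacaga
The GC content of these sequences is 74.4%, 80.0% and 63.6%. Other elements searched were the full CRE, TGACGTCA, which overlaps the half-site and is in 508 promoters (1.55%), the E-box CACGTG (1978, 6.02%), the D-box TTANGTAA (677, 2.06%) and the Rev-erb element core TAGGTCA (734, 2.23%). The Nr4a monomer element AAAGGTCA (439, 1.34%), the kappaB site (1281, 3.90%) and the CArG box (482, 1.47%) were searched as well. The 3 Nr4a promoters hold none of these. Among the other members, Rxra has an AAAGGTCA at -50 in 1 promoter, and Rara has a kappaB site that lies in 2 of its promoters, which overlap, and an E-box at -10 in 1. A match describes the sequence, and binding was not measured.

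Pparg encodes the fatty acid receptor PPAR-gamma, and its decrease with KLA at 12 h in EPM was the largest among the members there. It was read by probe A_51_P106799 on chromosome 6 (mm8), which is spotted 10 times on each array. EPM values were 12.64 and 12.62 untreated, 12.57 and 12.63 in KLA 1 h, 12.70 and 12.71 in DMSO 12 h and 9.84 and 9.80 in KLA 12 h. At 1 h the samples overlapped and the change was not called, while at 12 h both treated samples lay far below both controls. The change was -2.89, or 7.41-fold lower (95% confidence interval -2.99 to -2.79, limma, adjusted p 1.81e-19).

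BMDM showed Pparg at 10.89 and 10.88 in DMSO 1 h, 10.91 and 10.94 in KLA 1 h, 10.53 and 10.58 in DMSO 12 h and 9.17 and 9.18 in KLA 12 h. The pattern was the one of EPM with a smaller step: no call at 1 h and a decrease in both samples at 12 h. Pparg fell by 1.38 there, or 2.61-fold (limma, adjusted p 7.06e-15). B cells held Pparg at 7.14 and 7.11 untreated, 7.24 and 7.23 in KLA 1 h, 7.14 and 7.18 in DMSO 12 h and 7.07 and 7.10 in KLA 12 h. Neither B cell change was called as labelled, though with the processed signal a rise of 0.20 at 1 h was (adjusted p 0.0333), and with the labels exchanged a decrease of 0.15 at 12 h was (limma, adjusted p 0.00929). The spots kept in a sample, 6 to 10 of them, had a standard deviation of 0.02 to 0.13, and the samples of a condition differed by 0.01 to 0.06.

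Rxra encodes the shared partner of Pparg, Ppard and Rara, and it too decreased in both macrophage types at 12 h. Probe A_52_P188139 on chromosome 2 (mm8) read 12.59 and 12.61 in untreated EPM, 12.57 and 12.67 in KLA 1 h, 12.60 and 12.73 in DMSO 12 h and 11.78 in both samples of KLA 12 h. In BMDM it read 11.63 and 11.65 in DMSO 1 h, 11.84 and 11.82 in KLA 1 h, 11.77 and 11.81 in DMSO 12 h and 10.31 and 10.38 in KLA 12 h. Both treated samples were below both controls at 12 h in each macrophage type. The decrease was 1.85-fold in EPM (-0.89, limma, adjusted p 5.91e-10, not called with array means as samples) and 2.72-fold in BMDM (-1.44, adjusted p 3.36e-13). The small rise in BMDM at 1 h (0.19, adjusted p 0.0281) was lost on leaving out any of its 4 samples: without the Cy5 or Cy3 sample of DMSO 1 h (0.18, adjusted p 0.13, and 0.20, adjusted p 0.0753), and without the Cy5 or Cy3 sample of KLA 1 h (0.18, adjusted p 0.117, and 0.20, adjusted p 0.0789). It was not called without normalization between arrays either (0.17, adjusted p 0.0501).

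The other Rxra probe, A_51_P307370, did not show the decrease in EPM at 12 h (0.09, adjusted p 0.291). In BMDM it fell by 0.17 (adjusted p 0.0278), far less than A_52_P188139. The probes of Rxra thus differ on the size of the decrease and, for EPM, on whether there was one, and the cause was not tested. In B cells A_52_P188139 read 7.52 and 7.56 untreated, 7.75 and 7.65 in KLA 1 h, 8.24 and 8.10 in DMSO 12 h and 8.35 and 8.43 in KLA 12 h. The 12 h rise of 0.22 was called (limma, adjusted p 0.0489), with both treated samples above both controls. It was lost without the Cy3 sample of the control (0.15, adjusted p 0.386) and without the Cy5 (0.26, adjusted p 0.0802) or Cy3 sample (0.18, adjusted p 0.251) of KLA 12 h. With the labels exchanged Rxra rose by 0.63 at 1 h (adjusted p 1.26e-07) and 0.69 at 12 h (adjusted p 4.05e-08).

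Ppard encodes PPAR-delta, the other fatty acid receptor of the list, and was read near background (probe A_51_P271556, chromosome 17). In BMDM its values were 6.45 and 6.43 in DMSO 1 h, 6.49 and 6.44 in KLA 1 h, 6.26 and 6.32 in DMSO 12 h and 6.47 and 6.51 in KLA 12 h. Only the 12 h samples were apart, with both treated ones higher. The rise of 0.20, or 1.15-fold, was called (limma, adjusted p 0.00343), and with the scanner's processed signal it was 0.83 (adjusted p 2.98e-06). In EPM Ppard read 6.45 and 6.43 untreated, 6.48 and 6.47 in KLA 1 h, 6.51 and 6.34 in DMSO 12 h and 6.56 and 6.50 in KLA 12 h. Its 12 h change in EPM was not called, and was called without the Cy5 sample of the control (0.19, adjusted p 0.0138). All 8 B cell samples of Ppard lay between 6.34 and 6.38.

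Rara encodes retinoic acid receptor alpha and was near background in macrophages (probe A_51_P389724, chromosome 11). EPM read 6.12 and 6.26 untreated and 6.38 and 6.45 in KLA 1 h. Both treated samples were higher, by 0.22, or 1.17-fold, a rise whose size ran from 0.16 to 1.17 over the alternatives. It was called (limma, adjusted p 0.0262). That call was lost without the Cy5 sample of untreated cells (0.16, adjusted p 0.238), the Cy5 sample of KLA 1 h (0.26, adjusted p 0.0534) or its Cy3 sample (0.19, adjusted p 0.151). In EPM at 12 h Rara was not well above background in either condition, so it has no fold there. In BMDM it was well above background in both samples of KLA 1 h (6.19 and 6.25) and in 1 of 2 samples of each control. B cells held more of it, at 7.32 and 7.22 untreated, 7.35 and 7.51 in KLA 1 h, 6.50 and 6.53 in DMSO 12 h and 6.32 and 6.37 in KLA 12 h. As labelled Rara was not called in B cells, and with the labels exchanged it fell by 0.75 at 1 h (adjusted p 8.34e-08) and 1.09 at 12 h (adjusted p 8.12e-10).

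Nr3c1, the gene of the glucocorticoid receptor, rose with KLA at 12 h in both macrophage types. Probe A_52_P138090 on chromosome 18 (mm8) read 10.54 and 10.40 in BMDM DMSO 12 h and 11.37 and 11.23 in KLA 12 h. At 1 h BMDM read 10.80 and 10.64 in the control and 10.76 and 10.53 with KLA. The 1 h samples overlapped, and the 12 h samples did not. The 12 h rise in BMDM was 0.84, or 1.78-fold (limma, adjusted p 8.08e-08).

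In EPM, Nr3c1 read 10.27 and 10.31 untreated, 10.33 and 10.27 in KLA 1 h, 10.16 and 10.11 in DMSO 12 h and 10.46 and 10.34 in KLA 12 h. Both treated samples were higher at 12 h, by less than in BMDM. The rise was 0.27, or 1.20-fold (limma, adjusted p 0.0136). It was not called without the Cy3 sample of the control (0.24, adjusted p 0.0795) or the Cy5 sample of KLA 12 h (0.21, adjusted p 0.116). The 3 other probes of Nr3c1 rose too: by 0.44, 0.65 and 0.70 in EPM and by 0.94, 1.15 and 1.18 in BMDM, all called. At 1 h in EPM A_52_P254174 alone was called higher (0.33, adjusted p 0.00128), and at 1 h in BMDM the 4 probes ran from -0.21 to 0.14 with none called. B cell values were 11.04 and 11.20 untreated, 11.09 and 11.07 in KLA 1 h, 11.54 and 11.46 in DMSO 12 h and 11.36 and 11.50 in KLA 12 h, with no change called as labelled. With the labels exchanged Nr3c1 rose by 0.38 at 1 h (adjusted p 0.00111) and 0.35 at 12 h (adjusted p 0.00215).

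Nr1d1 encodes Rev-erb-alpha, and its 3 probes gave different answers. Probe A_52_P130961 on chromosome 11 (mm8), the one used, read in BMDM 6.55 and 6.50 in DMSO 1 h, 6.39 and 6.37 in KLA 1 h, 7.30 and 7.15 in DMSO 12 h and 6.68 and 6.52 in KLA 12 h. Both treated samples lay below both controls at each time. At 12 h Nr1d1 fell by 0.63, or 1.54-fold (limma, adjusted p 2.62e-06). Over the alternatives this change ran from -1.32 to -0.21. At 1 h the decrease of 0.15 was not called (adjusted p 0.213) and was called with the dye as a replicate block (adjusted p 0.043) and with the processed signal (-0.51, adjusted p 0.0107), and it turned to 0.07 with the mean of probes (adjusted p 0.496). At 12 h in BMDM probe A_51_P223776 also decreased (-0.25, adjusted p 0.0185), while probe A_52_P130952 rose (0.25, adjusted p 0.00235). A_52_P130952 was also called higher at 1 h in BMDM (0.25, adjusted p 0.00684), and A_51_P223776 at 12 h in EPM (0.28, adjusted p 0.0104). A direction for Nr1d1 with KLA can therefore be stated for each probe only.

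In EPM the probe of Nr1d1 used read 7.15 and 7.11 untreated, 7.30 and 7.07 in KLA 1 h, 6.94 and 6.96 in DMSO 12 h and 7.00 and 6.87 in KLA 12 h. Samples overlapped at both times and nothing was called. In B cells it read 7.03 and 6.92 untreated, 7.06 and 6.93 in KLA 1 h, 6.85 and 6.77 in DMSO 12 h and 6.97 and 6.82 in KLA 12 h, again without a call, with either set of labels.

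**Figure D3:**
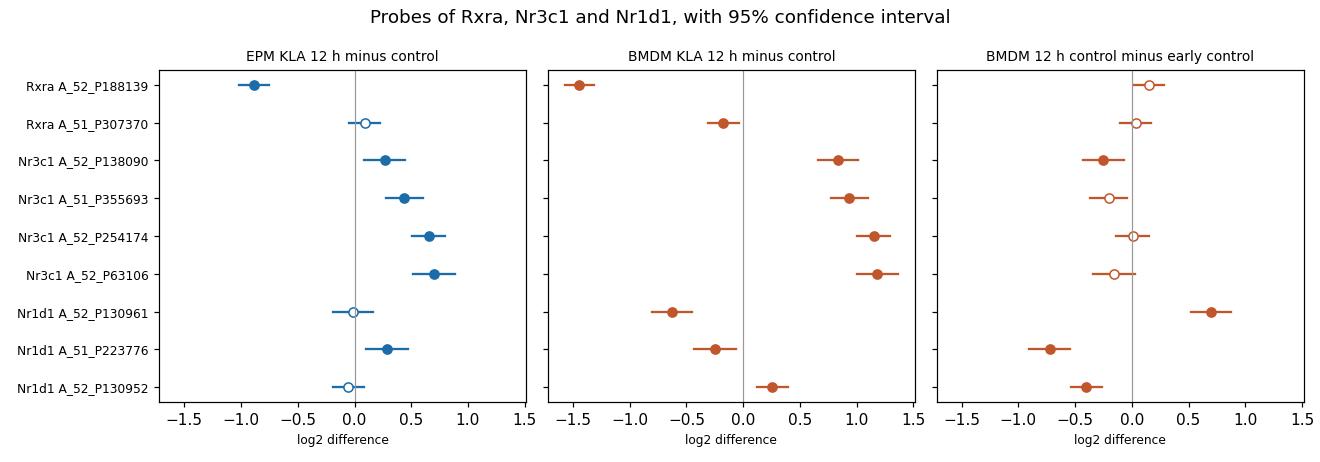
Change of each probe of Rxra, Nr3c1 and Nr1d1 (log2, points) with its 95% confidence interval (lines) in 3 comparisons; filled points are called. The 4 Nr3c1 probes all rose in BMDM at 12 h (0.84 to 1.18), and the 3 Nr1d1 probes ran from -0.63 to 0.25.

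Nr1d2 encodes Rev-erb-beta and has 1 probe, A_52_P303891 on chromosome 14 (mm8). In BMDM it read 9.53 and 9.33 in DMSO 1 h, 9.55 and 9.30 in KLA 1 h, 8.81 and 8.63 in DMSO 12 h and 9.19 and 9.05 in KLA 12 h. Only at 12 h were the samples apart, with both treated ones higher. The rise was 0.40, or 1.32-fold (limma, adjusted p 0.00229), and without normalization between arrays it was 0.07 and not called (adjusted p 0.567). In EPM it read 9.15 and 9.05 untreated and 8.97 and 8.89 in KLA 1 h, both lower with KLA. That difference (-0.17, adjusted p 0.25) was called only with the dye as a replicate block (adjusted p 0.014). At 12 h EPM read 9.06 and 8.96 in the control and 9.15 and 9.05 with KLA, without a call.

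B cells held Nr1d2 at 10.25 and 10.04 untreated, 9.96 and 9.88 in KLA 1 h, 9.37 and 9.18 in DMSO 12 h and 9.35 and 9.18 in KLA 12 h. The 1 h decrease, seen in both samples (-0.23, limma, adjusted p 0.239), was called with the dye as a replicate block (adjusted p 0.00668). With that block the count of members called in B cells at 1 h was 2 in place of 1, and in BMDM at 1 h 4 in place of 2, while the genes called rose as well: in B cells to 1247 higher and 1159 lower from 472 and 425, and in BMDM to 2515 higher and 4371 lower from 1903 and 3053. With the labels exchanged Nr1d2 fell by 0.87 at 1 h (adjusted p 1.26e-06) and 0.65 at 12 h (adjusted p 3.78e-05).

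The early controls were compared between cell types. Those of EPM and BMDM differed in 7 of 10 members, EPM and B cells in 8, and BMDM and B cells in 9, where the 8 and the 9 include Nr4a3, which was not well above background in macrophages. Of all genes, 57.8%, 77.2% and 76.6% were called in these comparisons. Only the BMDM control had vehicle, so vehicle and cell type are mixed in the comparisons with BMDM. Median differences of the members were -0.03, -0.54 and -0.43, where those of all genes were -0.01, 0.01 and 0.03, or -0.09, 0.14 and 0.22 without normalization between arrays.

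Pparg and Rxra were the macrophage members. In the early controls Pparg was 3.34-fold higher in EPM than in BMDM (1.74, limma, adjusted p 2.96e-16), 45.5-fold higher in EPM than in B cells (5.51, adjusted p 5.57e-24) and 13.6-fold higher in BMDM than in B cells (3.77, adjusted p 6.83e-22). Rxra was 1.94-fold higher in EPM than in BMDM (0.96, adjusted p 1.74e-10), 33.3-fold higher in EPM than in B cells (5.06) and 17.1-fold higher in BMDM than in B cells (4.10). Every sample of the first cell type named was above every sample of the other. By the other Rxra probe the orders were the same with smaller steps: 0.40, 1.10 and 0.70.

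Nr4a1, Nr4a2, Rara, Nr3c1 and Nr1d2 were highest in B cells. Early Nr4a1 was 15.4-fold lower in EPM (-3.94, limma, adjusted p 2.25e-20) and 7.89-fold lower in BMDM (-2.98, adjusted p 1.6e-18) than in B cells, and lower in EPM than in BMDM (-0.96, adjusted p 1.6e-10). Nr4a2 followed the same order, with -1.67 for EPM (adjusted p 3.53e-11) and -0.78 for BMDM (adjusted p 2e-06) against B cells, and -0.89 for EPM against BMDM (adjusted p 7.67e-07). Both genes thus ran from EPM through BMDM to B cells, and no sample broke this order. Rara was lower by 1.08 in EPM (adjusted p 8.44e-11) and by 1.03 in BMDM (adjusted p 2.01e-10), where 1 of 2 samples measured it.

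Nr3c1 was lower in EPM than in BMDM (-0.43, limma, adjusted p 0.00029) and lower in each than in B cells (-0.83, adjusted p 4.66e-08, and -0.40, adjusted p 0.000326). Of its 3 other probes A_52_P254174 did not call EPM against BMDM (-0.16, adjusted p 0.0545), and A_51_P355693 and A_52_P63106 did not call BMDM against B cells (-0.05, adjusted p 0.583, and -0.15, adjusted p 0.116). The difference between BMDM and B cells was -0.02 and not called without normalization between arrays (adjusted p 0.806). Nr1d2 was lower than in B cells by 1.04 in EPM (adjusted p 2.85e-08) and by 0.71 in BMDM (adjusted p 4.66e-06). Between EPM and BMDM its difference of -0.33 (adjusted p 0.0112) was lost without the Cy3 sample of EPM (-0.28, adjusted p 0.0827) or the Cy5 sample of BMDM (-0.23, adjusted p 0.142). Nr1d1 was higher in EPM than in BMDM by the probe used (0.60, adjusted p 5.76e-06) and lower by the others (-0.91 and -0.37, both called), so its order depends on the probe. Against B cells the same 3 probes gave -0.45, 0.82 and 0.28 for BMDM, all called, and for EPM the probe used gave 0.15 (adjusted p 0.107, and 0.0185 with the dye as a replicate block). It was called without normalization between arrays (0.35, adjusted p 0.000819), and the other probes each gave -0.09 (adjusted p 0.362 and 0.206) and the mean of probes -0.01. Ppard was not called between the early controls. Against B cells it was called without normalization between arrays, for EPM (0.20, adjusted p 0.0028) and BMDM (0.26, adjusted p 0.000333), in the authors' table (0.19, adjusted p 0.0367, and 0.29, adjusted p 0.00352), and with the processed signal for BMDM (0.26, adjusted p 0.0263).

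The controls kept for 12 h with vehicle were compared in the same way, and some orders held while others turned round. Those of EPM and BMDM differed in 7 of 10 members, EPM and B cells in 7, and BMDM and B cells in 8. Of all genes 56.9%, 77.0% and 76.4% were called. Member medians were 0.08, 0.02 and -0.08, against -0.02, 0.01 and 0.03 for all genes, or -0.08, 0.10 and 0.18 for these without normalization between arrays. Pparg was 4.43-fold higher in EPM than in BMDM (2.15, limma, adjusted p 1.23e-17), 46.8-fold higher in EPM than in B cells (5.55) and 10.6-fold higher in BMDM than in B cells (3.40). Rxra differed by 0.88, 4.50 and 3.62 in the same comparisons.

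Nr4a1 was 20.2-fold lower in EPM than in B cells at 12 h (-4.33, limma, adjusted p 5.46e-21), 8.28-fold lower in BMDM than in B cells (-3.05) and 2.44-fold lower in EPM than in BMDM (-1.29, adjusted p 1.77e-12). Nr4a2 had turned round against B cells, at 0.58 for EPM (adjusted p 6.12e-05) and 0.48 for BMDM (adjusted p 0.000434), and the difference between EPM and BMDM was not called. As labelled, these differences from B cells reached 1.71 for EPM and 1.46 for BMDM under other alternatives. With the B cell labels exchanged Nr4a2 remained lower in EPM (-2.09, adjusted p 1.11e-12) and BMDM (-2.19, adjusted p 5.99e-13), and Nr4a1 was lower by 6.47 and 5.18. The counts with exchanged labels were 8 members for EPM (76.5% of all genes) and 9 for BMDM (76.2%), both with Nr4a3 among them. Exchanged, Pparg differed from B cells by 5.47 in EPM and 3.32 in BMDM, and Rxra by 4.97 and 4.09. Nr3c1 differed by -0.94 and -0.61 and Nr1d2 by -0.91 and -1.20, all of them called. Rara was called in BMDM (-1.22), where 1 of 2 samples measured it. In EPM Rara was called too, but was not well above background in the 12 h control, so no value is given. Nr1d1 was then called for BMDM (0.23, adjusted p 0.0187) and not for EPM (-0.04, adjusted p 0.668). As labelled, Nr3c1 was lower in EPM than in BMDM (-0.33, adjusted p 0.0027) and lower than in B cells by 1.37 in EPM and 1.03 in BMDM. Rara was at least 1.25-fold lower in EPM than in B cells (adjusted p 0.000615), and lower by 0.31 in BMDM (adjusted p 0.000782), where 1 of 2 samples measured it.

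Several smaller differences between the 12 h controls hung on single samples or on the scaling. Ppard in EPM against B cells was not called, but was without the Cy3 sample of EPM (0.15, and -0.03 without the Cy5 sample). Against the early controls the sign of Nr1d2 between EPM and BMDM had turned round, as had that of Nr1d1 by the probe used, between EPM and BMDM and between BMDM and B cells. Ppard was higher in EPM than in BMDM (0.14, limma, adjusted p 0.0399), which was lost without the Cy5 sample of EPM (0.05, adjusted p 0.497) or of BMDM (0.10, adjusted p 0.223). Nr1d2 was higher in EPM than in BMDM (0.29, adjusted p 0.0232), which was lost without the Cy5 sample of EPM (0.24, adjusted p 0.13) or the Cy3 sample of BMDM (0.20, adjusted p 0.206). Against B cells Nr1d2 was lower in EPM (-0.26, adjusted p 0.0273), but this turned to 0.02 without normalization between arrays, and it was lost without the Cy3 sample of EPM (-0.22, adjusted p 0.138) or the Cy5 sample of B cells (-0.17, adjusted p 0.231). In BMDM Nr1d2 was lower than in B cells by 0.55 (adjusted p 8.81e-05), and without normalization between arrays it was not called (-0.14, adjusted p 0.227). The same alternative also lost the calls of EPM against BMDM for Ppard (0.10, adjusted p 0.113) and Nr1d2 (0.16, adjusted p 0.203). Nr1d1 was lower in EPM than in BMDM (-0.27, adjusted p 0.00979), a call lost without the Cy5 sample of BMDM (-0.20, adjusted p 0.117). By A_51_P223776 this difference was -0.24 (adjusted p 0.0248) and by A_52_P130952 -0.02 (adjusted p 0.796), so those probes kept their sign. Against B cells the probe of Nr1d1 used was higher in BMDM (0.42, adjusted p 0.00019). There A_51_P223776 was at least 1.59-fold higher (adjusted p 9.93e-07) and A_52_P130952 was not called (-0.10, adjusted p 0.154). In EPM the probe used was not called (0.14, adjusted p 0.126). It was called with the dye as a replicate block (adjusted p 0.0246) and without normalization between arrays (0.27, adjusted p 0.00655). With the mean of probes Nr1d1 was called there too, as given below.

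The 12 h control was set against the early control of each cell type, which asks what happened without KLA and is called culture here. In EPM 2 of 10 members were called, both lower, in BMDM 6, of which 1 was higher and 5 lower, and in B cells 7, of which 2 were higher and 5 lower, Nr4a3 among these 5. Of all genes 19.1%, 23.2% and 47.4% were called, and 5.17% in B cells with the labels exchanged. The member medians were -0.08, -0.20 and -0.23, where all genes had -0.00, 0.00 and -0.00. In EPM and B cells the early control had no vehicle, so vehicle and time cannot be told apart there. In B cells the summed signal of the macrophage markers was 2467 and 2944 untreated and 6596 and 6550 in DMSO 12 h. That of the T cell markers was 2095 and 1724, then 4010 and 3583. Bright markers weigh most in these sums: Emr1 read 7.52 and then 10.88, Ctsd 10.66 and 11.87, and Lck 10.11 and 11.43. Of 9 macrophage markers 3 were called higher and 2 lower (median 0.03). Of 7 T cell markers 2 were higher and 0 lower (median 0.07). The part that other cells have in the change of the members with culture was not tested.

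Nr4a1 decreased in every cell type with culture, in B cells as labelled: the change was -2.22 in EPM (4.66-fold lower, limma, adjusted p 7.22e-14), -1.89 in BMDM (3.72-fold lower, adjusted p 4.42e-13) and -1.83 in B cells (3.54-fold lower, adjusted p 1.13e-13). Nr4a2 changed by -1.31 in BMDM (adjusted p 5.1e-08) and by -2.57 in B cells (5.92-fold lower, adjusted p 1.19e-12). Both 12 h samples were below both early samples in each of these. Under other alternatives the Nr4a2 change reached -2.06 in BMDM and -4.45 in B cells. In EPM the decrease of Nr4a2 (-0.32, adjusted p 0.043) was lost without the Cy5 (-0.39, adjusted p 0.0613) or Cy3 sample (-0.24, adjusted p 0.251) of untreated cells or the Cy5 sample of DMSO 12 h (-0.21, adjusted p 0.329). With the B cell labels exchanged only Nr4a1 was called in B cells, and it rose by 0.31 (adjusted p 0.00504).

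Among the other members Pparg fell with culture in BMDM (-0.33, limma, adjusted p 3.54e-05), as did Nr1d2 (-0.71, adjusted p 5.76e-05). Nr3c1 also fell in BMDM (-0.25, adjusted p 0.0413), but not without the Cy5 sample of DMSO 1 h (-0.17, adjusted p 0.337) or the Cy3 sample of DMSO 12 h (-0.18, adjusted p 0.27), nor without normalization between arrays (-0.23, adjusted p 0.0556). By the probe used Nr1d1 rose in BMDM (0.70, adjusted p 7.05e-06), and by the others it fell (-0.73 and -0.40, both called). In B cells as labelled Rara fell by 0.75 (adjusted p 8.34e-08) and Nr1d2 by 0.87 (adjusted p 1.26e-06), while Rxra rose by 0.63 (adjusted p 1.26e-07) and Nr3c1 by 0.38 (adjusted p 0.00111). With the dye as a replicate block further decreases were called, for Nr1d1 in EPM (-0.18, adjusted p 0.169, with the block 0.0231) and B cells (-0.17, adjusted p 0.112, with the block 0.0155) and Ppard in BMDM (-0.15, adjusted p 0.0566, with the block 0.0346). Ppard in BMDM was also called without normalization between arrays (-0.19, adjusted p 0.0175), with an offset of 16 (-0.26, adjusted p 0.0288), with the mean of probes (adjusted p 0.0305) and with the processed signal (-0.73, adjusted p 9.73e-05).

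The response of EPM was then tested against that of BMDM, as the difference of their changes with KLA. At 1 h only Nr4a1 differed, 1 of 10 members, where 9.56% of all genes did. At 12 h 6 members differed, 2 with the higher value in EPM and 4 with the lower, where 47.8% of all genes did. The member medians were -0.03 at 1 h and -0.20 at 12 h, and those of all genes -0.02 and -0.03. Without normalization between arrays the median of all genes at 12 h turned to 0.17, and 76.6% of the calls were higher in EPM in place of 48.5%. The split of all genes at 12 h thus depends on the scaling. Among the 6 members the sign turned for Nr4a1 and the call of Nr3c1 was lost, as given below. A difference tested in this way is needed before a call in 1 cell type and none in another is read as a difference between them, and B cells were not entered in such a test.

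At 1 h Nr4a1 rose more in EPM than in BMDM, by 1.89 (limma, adjusted p 5.77e-11). The early control had vehicle in BMDM and none in EPM, so KLA and vehicle cannot be told apart in this difference. In both cell types the treated samples exceeded the controls, and EPM started lower. At 12 h the Nr4a1 difference was -0.29 (adjusted p 0.00985), was not called without the Cy3 sample of BMDM KLA 12 h (-0.23, adjusted p 0.0568), and turned to 0.08 without normalization between arrays. Nr4a2 rose less in EPM at 12 h (-0.90, adjusted p 7.23e-05). Pparg fell more in EPM (-1.51, adjusted p 2.52e-12), and Rxra by the probe used fell less in EPM (0.55, adjusted p 4.48e-05). By the other Rxra probe the difference was 0.26 (adjusted p 0.0288). That probe did not fall in EPM, with means of 7.39 in the 12 h control and 7.48 in KLA 12 h. The partners Pparg and Rxra thus differed between the macrophage types in opposite senses.

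Nr3c1 rose less in EPM than in BMDM at 12 h (-0.57, limma, adjusted p 0.000784), a difference seen with all 4 probes (-0.57, -0.50, -0.50 and -0.48) and not called without normalization between arrays (-0.20, adjusted p 0.17). Nr1d1 by the probe used differed by 0.61 (adjusted p 0.000345), by A_51_P223776 by 0.53 and by A_52_P130952 by -0.31, all called. Nr1d2 was not called (-0.31, adjusted p 0.0891) and was with the dye as a replicate block (adjusted p 0.00125), while without normalization between arrays it turned to 0.10 (adjusted p 0.586).

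The response at 12 h was set against that at 1 h within each macrophage type. For EPM the 1 h response had a control without vehicle, so vehicle and time cannot be told apart in its differences. In EPM 4 of 10 members differed, all lower at 12 h, where 43.7% of all genes differed. These 4 include Rara, which was not well above background in EPM at 12 h, so that its count there rests on no measured change. In BMDM 7 members differed, of which 3 were higher and 4 lower, where 54.4% did. Member medians were -0.04 and -0.03, against -0.03 and -0.02 for all genes, or 0.04 and -0.11 for these without normalization between arrays. Nr4a1 had the earlier response in both, with differences of -3.81 in EPM (limma, adjusted p 1.63e-16) and -1.62 in BMDM (adjusted p 2.23e-11). Pparg and Rxra had the later decrease, with -2.86 (adjusted p 1.34e-16) and -0.91 (adjusted p 1.1e-07) in EPM and -1.42 (adjusted p 2.15e-12) and -1.63 (adjusted p 2.22e-11) in BMDM. The Rxra values are those of A_52_P188139, and by A_51_P307370 the difference was 0.08 in EPM (adjusted p 0.566) and -0.17 in BMDM (adjusted p 0.15), neither of them called.

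In BMDM the change with KLA was higher at 12 h than at 1 h for Nr4a2 (0.70, limma, adjusted p 0.000618) and Nr3c1 (0.91, adjusted p 4.06e-06). That of Nr1d1 was lower at 12 h by the probe used (-0.48, adjusted p 0.00221) and by A_51_P223776 (-0.34, adjusted p 0.0283). By A_52_P130952 it was not called (0.00, adjusted p 0.998). These differences also hold the move of the controls. Mean Nr4a2 read 8.15 in DMSO 1 h, 6.85 in DMSO 12 h and 7.81 in KLA 12 h, so KLA 12 h stayed below the early control. Nr1d2 did likewise, at 9.43, 8.72 and 9.12. Nr1d1 by the probe used read 6.53, 7.22 and 6.60. Nr1d2 in BMDM (0.41, adjusted p 0.0252) was lost without the Cy5 sample of DMSO 1 h (0.30, adjusted p 0.125), the Cy3 sample of KLA 1 h (0.28, adjusted p 0.143), the Cy3 sample of DMSO 12 h (0.31, adjusted p 0.117) or the Cy5 sample of KLA 12 h (0.34, adjusted p 0.0981), and without normalization between arrays (0.14, adjusted p 0.446). That alternative called Nr3c1 (0.42, adjusted p 0.0081) and Nr1d2 (0.39, adjusted p 0.0366) in EPM. With the dye as a replicate block Nr3c1 (0.25, adjusted p 0.102, with the block 0.048) and Nr1d2 (0.26, adjusted p 0.17, with the block 0.00606) were called in EPM, and Ppard in BMDM (0.18, adjusted p 0.0629, with the block 0.0491).

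Further calls moved with the processed signal. It called Ppard in the 12 h response of EPM against BMDM (-0.74, adjusted p 0.000578), in the response at 12 h against 1 h in EPM (0.38, adjusted p 0.0403) and BMDM (0.92, adjusted p 5.88e-05), and in the 12 h control of BMDM against B cells (-0.37, adjusted p 0.00363). With culture it called Rxra in BMDM (0.19, adjusted p 0.0491) and Nr1d1 in B cells (-0.37, adjusted p 0.0333), and not Nr3c1 in BMDM (-0.22, adjusted p 0.0804). It called Nr4a1 in BMDM at 12 h (-0.16, adjusted p 0.0379). The calls of Nr1d2 were lost in the 12 h controls of EPM against BMDM (0.33, adjusted p 0.0558) and B cells (-0.27, adjusted p 0.091) and in the response at 12 h against 1 h in BMDM (0.40, adjusted p 0.107). Rara in BMDM at 12 h was called too, but was not well above background with KLA there, so no value is given.

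Other alternatives moved calls that stood near the threshold. Nr4a1 in BMDM at 12 h was called in the authors' table (-0.24, adjusted p 0.00751) and with the mean of probes (adjusted p 0.0428). Nr4a2 in BMDM at 1 h was called with the cell type fitted alone (adjusted p 0.0358) and with centring on the median change (0.30, adjusted p 0.0418), which also called Ppard in EPM at 12 h (0.16, adjusted p 0.0193). Rxra in BMDM at 1 h was lost with an offset of 16 (adjusted p 0.0701) and with the mean of probes (0.09, adjusted p 0.175). Its call in B cells at 12 h was lost with these (adjusted p 0.0714 and 0.0522), with quantile normalization over channels (adjusted p 0.0643), where every channel had to be well above background (adjusted p 0.0658) and with the cell type fitted alone (adjusted p 0.18). Nr3c1 with culture in BMDM was lost with an offset of 16 (adjusted p 0.0587), quantile normalization over channels (adjusted p 0.0527), the mean of probes (-0.15, adjusted p 0.0883) and the authors' table (-0.19, adjusted p 0.163).

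In the authors' table the 12 h response of Nr4a1 was not called between EPM and BMDM (-0.26, adjusted p 0.0504), nor was Ppard between their 12 h controls (0.10, adjusted p 0.326), and Nr1d1 was called between the early controls of EPM and B cells (0.30, adjusted p 0.0075). With the mean of probes Nr1d1 was called between the 12 h controls of EPM and B cells (0.15, adjusted p 0.0384) and with culture in B cells (-0.26, adjusted p 0.00243), and Nr3c1 in the response at 12 h against 1 h in EPM (0.39, adjusted p 0.00154). For Ppard in BMDM that difference of responses was called with the mean of probes (adjusted p 0.036) and an offset of 16 (0.30, adjusted p 0.0338).

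Because the B cell labels are in doubt, the counts with the labels exchanged are given together. Exchanged, 7 of 10 members were called in B cells at 1 h, with Nr4a3 among them, and 7 at 12 h. These went with 47.4% and 49.1% of all genes. Nr4a1, Nr4a2, Rara and Nr1d2 fell and Rxra and Nr3c1 rose at both times. As labelled, by contrast, KLA left the B cell members nearly where they were and the large step lay between the 12 h control and untreated cells. The members called as labelled, Nr4a1 at 1 h and Rxra at 12 h, are therefore not a settled response of B cells to KLA.

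Genes that work with the members were also read. Of the 39 other nuclear receptors on the arrays 29 were tested, and 26 were well above background in untreated EPM, 22 in the early control of BMDM and 18 in untreated B cells. With KLA in EPM 2 were higher and 3 lower at 1 h (median -0.04) and 8 higher and 7 lower at 12 h (median -0.01). In BMDM 2 were higher and 3 lower at 1 h (median -0.02) and 9 higher and 7 lower at 12 h (median 0.11), and in B cells at 12 h 1 was higher and 3 lower (median -0.01), or 13 called with the labels exchanged, where 5.29% and 49.1% of all genes were called. At 1 h in B cells none was called as labelled and 13 were with the labels exchanged, where 5.17% and 47.4% of all genes were. The medians of all genes are those given above, and of all genes 29.1% were called in EPM and 28.6% in BMDM at 1 h, and 53.9% and 65.0% at 12 h, against which the counts of this and the next lists stand. Beside Rxra, its relative Rxrb fell at 12 h in EPM (-0.80, limma, adjusted p 3.61e-09) and BMDM (-0.66, adjusted p 3.02e-08), while Nr1h3, the gene of the oxysterol receptor LXR-alpha and another partner of Rxra, rose (0.64, adjusted p 5.27e-08, and 1.84, adjusted p 7.99e-15). Beside Rara, its relative Rarg rose at 12 h (0.79 and 1.16). Of 17 coregulators, 4 were higher and 6 lower in EPM at 12 h (median -0.02) and 7 higher and 5 lower in BMDM (median 0.02).

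Known PPAR target genes were read next, a list that is not particular to Pparg. Of 14 tested, 9 were lower in EPM at 12 h and the others were not called (median -0.78), where 34.3% of all genes were lower. In BMDM 8 were lower and 3 higher (median -0.40), where 36.3% of all genes were lower and 28.6% higher. Of the 9 macrophage markers 5 were lower and 2 higher in EPM (median -0.40), and 6 lower and 2 higher in BMDM (median -0.45). Fabp4 fell by 2.31 in EPM (limma, adjusted p 1.36e-14) and was not called in BMDM (0.09, adjusted p 0.346). Cd36 fell by 1.47 in EPM (adjusted p 5.61e-13) and 0.79 in BMDM (adjusted p 3.22e-09), and Lpl by 1.39 and 1.62. At 1 h, when Pparg was not called, 3 were lower and 1 higher in EPM (median -0.11) and 5 lower and 2 higher in BMDM (median -0.19), and Fabp4 rose (0.78 and 1.06). Whether the decrease of Pparg caused that of these genes was not tested.

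Target genes of Nr3c1 went both ways at 12 h. Of 14 tested, 7 were higher and 4 lower in EPM at 12 h (median 0.30) and 6 higher and 6 lower in BMDM (median 0.20). At 1 h, when Nr3c1 was not called, 6 were higher and 4 lower in EPM (median 0.29) and 7 higher and 2 lower in BMDM (median 0.37). Dusp1 rose at 12 h (0.75 in EPM, limma, adjusted p 0.000276, and 1.59 in BMDM, adjusted p 2.28e-08) while Mt1 fell (-1.48 and -1.93). Of 15 clock genes, the company of Nr1d1 and Nr1d2, 2 were higher and 6 lower in EPM at 12 h (median -0.06) and 4 higher and 6 lower in BMDM (median -0.15), where Dbp fell by 1.99 (adjusted p 5.6e-12) and Nfil3 rose by 1.78 (adjusted p 4.64e-12). Of 11 retinoid genes, read beside Rara and Rxra, 1 was higher and 5 lower in EPM at 12 h (median -0.11) and 3 higher and 4 lower in BMDM (median -0.04).

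Across the 12 condition means, which include the 3 cell types, Pparg and Rxra had a Pearson correlation of 0.963. The genes most like Pparg over these means were Atg7 (0.996), Cgnl1 (0.995) and E330036I19Rik (0.992). For Nr4a1 they were Mtmr12 (0.962), BC021614 (0.949) and 2310047M10Rik (0.938), and for Nr4a2 Centd2 (0.916), Cox10 (0.901) and E130304F04Rik (0.899). All points share the difference between cell types, so these values describe the profiles and are no test.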

How the data were processed

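The deposited scanner files hold the spot intensity of each channel, mean signal and local background, as the authors' Agilent Feature Extraction 9.5.3.1 wrote them, without normalization. The authors' deposited table of values covers 38516 probes, and its scale and normalization are not stated.

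From the scanner files the background was corrected with normexp (offset 50), arrays were normalised by loess within and Aquantile between arrays in limma 3.58.1 (R 4.3.3, data.table version 1.17.8), and spots of a probe were averaged. Of 41174 probes, 34850 had 1 gene symbol. For the 8826 symbols with several probes the one with the highest mean was used. A gene was tested where both channels of some condition were well above background. The 24 channels were the samples of 1 fit over 12 conditions (12 residual degrees of freedom), tested with limma's eBayes test and Benjamini-Hochberg adjustment over 17347 genes at a threshold of 0.05. Of the values of these genes 134 were missing.

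Channels of the same dye shared deviations from their condition means in all 66 pairs of arrays (r 0.27 to 0.63), so the fit with the dye as a replicate block is given where it changes a call. The pairing comes from these correlations and not from the labels. Genes named beside the members come from lists of other nuclear receptors, coregulators, target genes, clock and retinoid genes written from general knowledge. The members and the lists were chosen with earlier results of these data known.

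Alternatives were another offset (16), the scanner's processed signal, other normalizations between arrays, the authors' table, other filters, the mean of probes, the dye block, each cell type alone, array means as samples, a threshold of 0.01, centring, exchanged B cell labels and leaving out each sample. The scripts were first run on simulated data with known changes.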

Additional observations from a re-analysis of the deposited data

Results flagged for a closer look

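Members whose change with KLA differed between the macrophage types or between the times are given here, with the differences tested in limma unless stated. The early control of EPM had no vehicle, so KLA and vehicle cannot be told apart in its 1 h response here. Between EPM and BMDM, the response of Nr4a1 differed by 1.89 at 1 h and by -0.29 at 12 h. At 12 h the differences were -0.90 for Nr4a2, -1.51 for Pparg, 0.55 for Rxra and -0.57 for Nr3c1. For Nr1d1 it was 0.61 by the probe used, but the probes disagree, and A_52_P130952 gave -0.31.

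Between 12 h and 1 h the response of Nr4a1 differed by -3.81 in EPM and -1.62 in BMDM, that of Pparg by -2.86 and -1.42, and that of Rxra by -0.91 and -1.63 with the probe used. The other Rxra probe gave 0.08 and -0.17, neither of them called. In EPM Rara differed by -0.32, but it was not well above background there at 12 h, so this value measures no change at that time. In BMDM the differences were 0.70 for Nr4a2, 0.91 for Nr3c1, -0.48 for Nr1d1 by the probe used and 0.41 for Nr1d2.

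At 12 h the change in macrophages was also set against that in B cells as labelled. The change in EPM less that in B cells was -0.50 for Nr4a1 and -1.11 for Rxra, and in BMDM less B cells it was -1.66 for Rxra. These 3 differences were not tested. Nr4a1 was not called in B cells at 12 h (0.07), and with the labels of the B cell conditions exchanged it changed by -2.06, more than in EPM, so the sense of its difference depends on the labels. Rxra by the probe used rose in B cells with either set of labels (0.22 and 0.69). By its other probe the 12 h changes were 0.09 in EPM, -0.17 in BMDM and 0.10 in B cells as labelled, so the difference of EPM from B cells is not seen with that probe and that of BMDM is smaller.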

How the results depend on the processing

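Of 2998 member results under all alternatives, 2656 kept their call and direction, 108 lost the call, 70 gained it, 133 changed sign and were called neither before nor after, and 31 changed sign and were called before, after or both times. The alternatives that moved a count of members by more than 1.5 times or turned a direction follow, and the cause was not tested for any of them.

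With an offset of 16, 1 member was called in BMDM at 1 h in place of 2, and 1 in B cells at 12 h in place of 2. Of all genes 1864 were called higher and 2851 lower in the former, and 497 and 414 in the latter. With the processed signal Ppard fell in EPM at 1 h (-0.29) and 2 members were called in B cells at 1 h. There 446 of all genes were called higher and 370 lower. With quantile normalization over channels 1 member was called in B cells at 12 h, where 465 of all genes were called higher and 405 lower.

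Without normalization between arrays 1 member was called in BMDM at 1 h and 1 in B cells at 12 h. Of all genes 1705 were called higher and 3721 lower in the former, and 513 and 421 in the latter. Per2 in BMDM at 12 h turned to -0.0781, the 12 h control difference of Nr1d2 between EPM and B cells to 0.0172, and the 12 h response difference of Nr4a1 between EPM and BMDM to 0.0822. Of the calls of all genes 46.4% were higher in EPM at 12 h (36.3% before), 29.8% in BMDM at 12 h (44.0%) and 15.7% in B cells at 1 h (52.6%), and 1474 genes were called in the latter (897 before).

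The authors' table lacks Pparg, and its B cell columns follow the exchanged labels. In it 7 members were called in B cells at 1 h (Nr4a1 -1.93, Nr4a2 -2.80, Rara -0.95, Nr3c1 0.38) and 6 at 12 h (Nr4a1 -2.30, Nr4a2 -2.73, Nr3c1 0.33). The 12 h control of Nr4a2 was -2.07 for EPM and -2.32 for BMDM against B cells. With culture 1 member was called in B cells (Nr4a1 0.43, Nr4a2 0.0827, Rara 0.15). Of all genes 7178 were called in B cells at 1 h (897 before), 7582 at 12 h (918) and 430 with culture (8218). The share higher was 46.2% in EPM at 1 h (32.3% before) and 50.8% in BMDM at 1 h (38.4%).

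With the labels of B KLA 1 h and B DMSO 12 h exchanged, 7 members were called at 1 h (Nr4a1 -1.83, Nr4a2 -2.57, Rara -0.75, Nr3c1 0.38) and 7 at 12 h (Nr4a1 -2.06, Nr4a2 -2.57, Nr3c1 0.35). Nr4a2 in the 12 h controls was -2.09 for EPM and -2.19 for BMDM against B cells. With culture 1 member was called (Nr4a1 0.31, Nr4a2 0.10, Rara 0.16, Nr3c1 -0.0425). All genes called were 8218, 8526 and 897.

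Where every channel compared had to be well above background, no member (0) was called in B cells at 12 h, and 521, 519 and 1022 genes were called in B cells at 1 h, at 12 h and in the EPM to BMDM difference at 1 h (897, 918 and 1658 before). With the mean of probes 1 member was called in BMDM at 1 h and 1 in B cells at 12 h. Of all genes 1905 were called higher and 3231 lower in the former, and 603 and 558 in the latter. Per2 was 0.23 in EPM and -0.0710 in BMDM at 12 h, Rarg -0.0016 in BMDM at 1 h, and Nr1d1 -0.23 between EPM and BMDM early, 0.22 between BMDM and B cells early and -0.14 with culture in BMDM.

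With the dye as a replicate block 4 members were called in BMDM at 1 h and 2 in B cells at 1 h, as in the report, and the block changed no call other than those given there. Genes called were 2406 in B cells at 1 h (897 before), 1937 at 12 h (918), 5152 with culture in EPM (3312) and 3102 in the EPM to BMDM difference at 1 h (1658).

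With each cell type fitted alone 0 members were called in B cells at 12 h, and 392 and 533 genes in B cells at 1 h and 12 h. With array means as samples and both controls of a cell type as replicates, 0, 1, 0, 2, 0 and 0 members were called in EPM at 1 h and 12 h, BMDM at 1 h and 12 h, and B cells at 1 h and 12 h. The genes called were 163, 1998, 100, 3650, 14 and 0 (5049, 9349, 4956, 11265, 897 and 918 before). Nr2f2 turned to -0.16 in EPM at 1 h, and Nfil3 to -0.11 and Zfp36 to -0.0127 in EPM at 12 h. The share higher was 88.3% in EPM at 1 h, 48.7% in EPM at 12 h (36.3% before), 96.0% in BMDM at 1 h and 100% in B cells at 1 h. Centring on the median change made it 44.7% in EPM at 1 h.

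At a threshold of 0.01 the members called were 1 in EPM at 1 h, 1 in BMDM at 1 h, 0 in B cells at 12 h and 1 with culture in EPM. In EPM at 1 h 1227 of all genes were called higher and 2246 lower. The genes were 3288 in BMDM at 1 h (4956 before), 408 and 532 in B cells, 2062 and 2534 with culture in EPM and BMDM (3312 and 4026) and 1010 in the EPM to BMDM difference at 1 h (1658).

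Leaving out each sample in turn gave these ranges of members and of all genes called: EPM 1 h 1 to 2 and 3427 to 4054, EPM 12 h 3 to 5 and 8236 to 8353, BMDM 1 h 1 and 3376 to 3934, BMDM 12 h 7 to 8 and 10297 to 10391, B 1 h 0 to 1 and 333 to 657, B 12 h 0 to 1 and 593 to 837. The early controls gave 6 to 7 members and 8667 to 9030 genes for EPM and BMDM. For EPM and B cells these were 7 to 8 and 12628 to 12742, and for BMDM and B cells 9 and 12459 to 12593. The 12 h controls gave 5 to 7 and 8674 to 8860 for EPM and BMDM. For EPM and B cells they gave 6 to 7 and 12589 to 12774, and for BMDM and B cells 8 and 12410 to 12547. Culture gave 1 to 2 members and 2008 to 2641 genes in EPM, and 5 to 6 and 2502 to 3135 in BMDM. In B cells it gave 6 to 7 and 6786 to 7270. The EPM to BMDM difference gave 1 and 1153 to 1482 at 1 h, and 5 to 6 and 7403 to 7602 at 12 h. The difference between times gave 3 to 4 and 6701 to 6957 in EPM, and 6 to 7 and 8711 to 8846 in BMDM.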
